A study of Mus musculus with 138 samples.

Results

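The lambdoid suture joins the parietal bones of the mouse skull to the interparietal bone behind them. These data cover its 2 tissue types at E18.5: the suture mesenchyme (SM), which stays unmineralized between the bones, and the osteogenic fronts (OF), the growing bone edges on either side. The members were the 15 laser-captured libraries labelled lambdoid and E18.5, of 138 samples in the series: 5 of the SM, 5 of the parietal OF and 5 of the interparietal OF. The SM was compared with each OF across all genes that passed the filter, and the genes shared by both comparisons and those found in 1 comparison were described. All 15 libraries came from C57BL/6J embryos, for which the labels name no altered allele and no agent. The same holds for the lambdoid libraries of E16.5 and for the coronal, frontal and sagittal libraries used for comparison. SM and OF libraries of the same replicate number share a litter label, and the number of embryos behind a library is not given in the sources used here. Some labels of different replicate numbers differ only in their last number, and whether these stand for 1 litter is not given. The cDNA was amplified before sequencing, and p-values measure the spread within groups over the 100 captured libraries fitted together. The main fit held no term for the replicate number, so its standard errors are unpaired. Laser capture takes whatever lies in the outlined tissue, so vessels, immune cells and neighbouring layers can be part of a library. In such bulk samples fewer cells of a type and less RNA per cell cannot be told apart.

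Calvarial bones grow by intramembranous ossification: bone is laid down inside a membrane by cells of the bone edge that mature into osteoblasts, with no cartilage stage. The factor Runx2 starts this program and Sp7 (osterix) acts downstream of it; mature osteoblasts secrete type I collagen, mineral-binding phosphoproteins and the enzymes that supply phosphate. The mesenchyme between the bones keeps a pool of undifferentiated cells, and hedgehog, FGF, BMP and Wnt signals pass between it and the fronts. If that balance fails, the bones fuse early, a condition called craniosynostosis.

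Values are CPM, the read pairs counted on a gene relative to those on all genes of the library, scaled to a common total between libraries by the TMM method. A difference is the log2 of SM over OF from the fitted model, with its standard error (SE), and is negative where the SM is lower. A gene was called when the adjusted p of the quasi-likelihood test of edgeR was under 0.05. Total counts were 7305627 to 8376486 in the SM and 8467758 to 10439953 in the fronts, and 22006 to 24479 genes had at least 1 read in a library. Mitochondrial genes took 15.9% to 22.9% of the counts. SM replicates 3 and 5 held more of several osteoblast transcripts than the other 3 SM libraries, Ibsp among them (169 and 56.3 CPM against 1.04 to 6.81 CPM). Without SM replicate 3, 244 of 258 called members of the gene lists below were still called against the parietal OF and 215 of 223 against the interparietal OF, and without SM replicate 5 247 and 213 were. Without all libraries of replicate 5 the numbers were 240 and 194, and with replicates 3 to 5 alone 183 and 175. None of them changed direction in these settings or under the other scalings.

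Against the parietal OF, 4860 of 19768 genes were called (24.6%), 1948 of them higher in the SM (9.85%) and 2912 lower (14.7%). Against the interparietal OF, 3865 genes were called (19.6%), 1450 higher (7.34%) and 2415 lower (12.2%). Both comparisons called 3397 genes (17.2%), 1179 higher in the SM (5.96%) and 2218 lower (11.2%), and no gene was called in opposite directions. The comparisons share the SM libraries, so the overlap was not tested. The shared genes were 69.9% of the calls against the parietal OF and 87.89% of those against the interparietal OF. The balance of directions depended on the scaling. TMM put 40.1% of the calls against the parietal OF and 37.5% of those against the interparietal OF on the higher side. Median-ratio size factors put 52.4% and 49.2% there, and DESeq2 54.3% and 50.9%. Total counts without TMM gave 53.9% and 43.7%. Of the genes called in both, 34.7% were higher under TMM, 47.2% under median-ratio size factors, 49.0% under DESeq2 and 43.9% under total counts. Under TMM the median log2 difference of all genes was 0.0188 against the parietal OF, and it was 0.1521 under median-ratio size factors and 0.1773 under total counts. Against the interparietal OF it was 0.0108 under TMM and 0.1199 under median-ratio size factors. All 20 groups shared 1 estimate of the spread. Without the 15 coronal E16.5 libraries, whose within-group dispersion was 0.9111 against 0.1215 here, 7081, 6059 and 5153 genes were called against the parietal OF, the interparietal OF and both, an alternative chosen after seeing the data. With replicates 3 to 5 alone, whose litter labels begin alike, the counts were 2463, 2366 and 1890. Of the 19832 genes tested there, 608 were higher in both and 1282 lower. At larger differences the balance was different again: 294 genes were higher by at least 3 log2 units against the parietal OF and 233 lower, and 155 and 216 against the interparietal OF.

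Among the genes called in both comparisons were several matrix proteins of mineralizing bone. The 4 clustered genes tested for acidic phosphoproteins that bind mineral were all lower in the SM. They lie on the plus strand of chromosome 5 (mm10), Dmp1 at chr5:104202613-104214102, Ibsp at chr5:104299171-104311469, Mepe at chr5:104325329-104338611 and Spp1 at chr5:104435118-104441050. A further gene of this cluster, Dspp, which serves dentin, was at 0 in every library. The 250 bases before their RefSeq starts (GRCm38.p6) are shown because these genes moved together and the RUNX core motif, TGTGGT or ACCACA on either strand, is the letters through which Runx2 is known to bind DNA. Capitals mark the motif:
Dmp1, chr5:104202367-104202616, + strand: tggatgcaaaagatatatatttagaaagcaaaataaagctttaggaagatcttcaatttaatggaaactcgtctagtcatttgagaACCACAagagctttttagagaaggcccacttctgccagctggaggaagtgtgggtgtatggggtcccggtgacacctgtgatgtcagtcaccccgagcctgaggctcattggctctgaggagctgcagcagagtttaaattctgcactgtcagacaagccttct
Ibsp, chr5:104299037-104299286, + strand: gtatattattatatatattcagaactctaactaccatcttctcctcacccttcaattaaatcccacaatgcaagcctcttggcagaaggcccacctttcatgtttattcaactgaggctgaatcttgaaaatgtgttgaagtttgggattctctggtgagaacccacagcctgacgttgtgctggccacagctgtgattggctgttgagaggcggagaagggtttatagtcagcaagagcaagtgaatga
Mepe, chr5:104325079-104325328, + strand: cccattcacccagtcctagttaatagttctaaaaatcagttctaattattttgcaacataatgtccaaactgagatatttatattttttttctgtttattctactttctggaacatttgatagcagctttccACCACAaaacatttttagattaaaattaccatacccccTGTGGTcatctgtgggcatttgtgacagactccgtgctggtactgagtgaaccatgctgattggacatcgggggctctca
Spp1, chr5:104434861-104435110, + strand: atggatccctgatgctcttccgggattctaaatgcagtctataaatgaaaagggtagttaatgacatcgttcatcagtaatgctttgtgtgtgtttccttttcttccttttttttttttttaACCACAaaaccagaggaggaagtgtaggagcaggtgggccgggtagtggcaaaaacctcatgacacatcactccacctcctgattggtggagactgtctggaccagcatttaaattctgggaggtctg
Dmp1 and Spp1 each have a further listed start, whose windows are not shown and hold 0 motifs. The windows shown hold 1, 0, 2 and 1 motifs, and 14.05% of all listed mouse promoter windows of this length hold at least 1. Among the windows of the genes tested here 10.92% held the motif. Of the windows of genes called lower in both comparisons 9.24% held the motif, and of those called higher 9.23%. Of the 25 windows of the bone matrix genes described below 7 held it. A match is only a run of letters, and whether Runx2 binds or acts on these genes was not tested.

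Ibsp, bone sialoprotein, was at 6.81, 1.84, 169, 1.04 and 56.3 CPM in the SM, 8136, 9603, 8117, 7263 and 8103 CPM in the parietal OF, and 6116, 7409, 9167, 5974 and 8922 CPM in the interparietal OF. All 5 SM libraries lay far below the 10 OF libraries, with replicates 3 and 5 the highest of the SM. The differences were -7.45 ± 0.91 against the parietal OF (adjusted p = 1.07e-10) and -7.32 ± 0.90 against the interparietal OF (adjusted p = 2.2e-10). Dmp1, which takes part in mineralization and in osteocytes, was at 0, 0, 2.25, 0 and 0.344 CPM in the SM, 33.6, 50.4, 28.7, 29.9 and 63.0 CPM in the parietal OF, and 18.3, 27.2, 22.9, 40.7 and 95.7 CPM in the interparietal OF, again without overlap, with -6.22 ± 0.89 and -6.21 ± 0.89. Spp1, osteopontin, ranged over 3.67 to 9.63 CPM in the SM, 74.7 to 99.2 CPM in the parietal OF and 26.7 to 108 CPM in the interparietal OF, with -3.49 ± 0.69 and -2.99 ± 0.68. A gene model on the same strand, Gm42793, overlaps Spp1 and was also lower, and reads in the overlap cannot be told apart. Mepe had no read in any SM library, 95 in the parietal OF and 78 in the interparietal OF. Set against a floor of 3 reads over the 5 SM libraries, Mepe was at least 25.5-fold and 22.9-fold lower there. Of the neighbouring genes, Gm26703 (-2.27 and -1.34) and Sparcl1 (-0.24 and 0.20) were not called, and Pkd2 was higher in the SM (0.69 and 0.72).

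Of 23 tested genes for bone matrix and mineralization, 15 were lower in the SM in both comparisons and none was higher. The list's median log2 difference was -3.68 against the parietal OF and -3.60 against the interparietal OF, or -3.51 and -2.99 with the genes absent from the SM set at their bounds. Several enzymes of mineral formation were among them. Alpl, the tissue-nonspecific alkaline phosphatase, was at 11.3, 10.9, 27.97, 11.5 and 26.2 CPM in the SM, 579, 559, 524, 418 and 483 CPM in the parietal OF, and 395, 356, 411, 371 and 511 CPM in the interparietal OF, with -4.86 ± 0.35 against the parietal OF (adjusted p = 5.1e-21) and -4.54 ± 0.34 against the interparietal OF (adjusted p = 1.23e-19). No SM library reached the lowest OF library. Phospho1, a phosphatase of matrix vesicles, had 1 read in the SM against 399 and 463 in the fronts. Phex, an endopeptidase that protects phosphate balance, ranged over 0 to 7.93 CPM in the SM, 75.2 to 105 CPM in the parietal OF and 51.1 to 95.7 CPM in the interparietal OF, and SM replicate 3 held the highest SM value. Smpd3, a sphingomyelinase needed for mineralization, differed by -5.93 ± 0.64 and -5.72 ± 0.63, Ifitm5, a membrane protein of osteoblasts, by -6.06 ± 0.48 and -6.02 ± 0.48, and Fam20c, the kinase of secreted phosphoproteins, by -3.50 ± 0.57 and -2.89 ± 0.57. Slc8a3, a sodium-calcium exchanger, differed by -5.28 ± 0.37 and -5.18 ± 0.37.

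The abundant collagen of bone showed much smaller differences. Col1a2 ranged over 10821 to 14001 CPM in the SM, 18355 to 22731 CPM in the parietal OF and 16142 to 21051 CPM in the interparietal OF and was lower in the SM, at -0.77 ± 0.16 and -0.55 ± 0.16. Col1a1 was lower against the parietal OF (-0.61 ± 0.18, adjusted p = 0.00796) and missed the threshold against the interparietal OF (-0.33 ± 0.18, adjusted p = 0.219). Sparc, osteonectin, was lower, at -0.88 ± 0.18 and -0.70 ± 0.18. Ank, a pyrophosphate exporter, and Postn, periostin, were called in neither comparison. Osteocalcin transcripts (Bglap, Bglap2) were at most 0.750 CPM in any library.

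The same direction held for most osteoblast transcription factors: of 14 tested, 10 were lower in the SM in both comparisons and 2 were higher. Sp7 was at 17.3, 10.9, 45.5, 27.6 and 41.8 CPM in the SM, 507, 512, 452, 419.9 and 430.2 CPM in the parietal OF, and 374, 454, 398, 354 and 428 CPM in the interparietal OF. The groups did not overlap, and the differences were -4.02 ± 0.32 against the parietal OF (adjusted p = 1.11e-18) and -3.81 ± 0.32 against the interparietal OF (adjusted p = 1.35e-17). Dlx3, a homeobox factor of mineralizing tissue, had 16 reads in all SM libraries together against 4296 and 3590 in the fronts, a ratio of 216 per read for the parietal OF (95% counting interval 133 to 378, counting error only), with an interval of 122 to 347 for the interparietal OF. Mef2c differed by -3.48 ± 0.25 and -3.27 ± 0.24, and Tcf7, a nuclear partner of beta-catenin, by -4.79 ± 0.44 and -4.36 ± 0.43. Runx2 itself remained well detected in the SM, at 379, 316, 586, 352 and 426 CPM against 724 to 934 CPM in the 10 OF libraries, and the difference was -1.05 ± 0.14 and -0.89 ± 0.14. Atf4, Creb3l1, Dlx5 and Runx1 were lower, with log2 differences of -1.37 to -0.76. The factors that were higher were Msx2, a homeobox factor whose activation causes craniosynostosis in people (78.5 to 110.2 CPM in the SM, 20.9 to 41.0 CPM in the fronts, 1.55 ± 0.22 and 1.28 ± 0.22), and Zfhx4 (0.73 ± 0.14 and 0.90 ± 0.15).

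**Figure D1:**
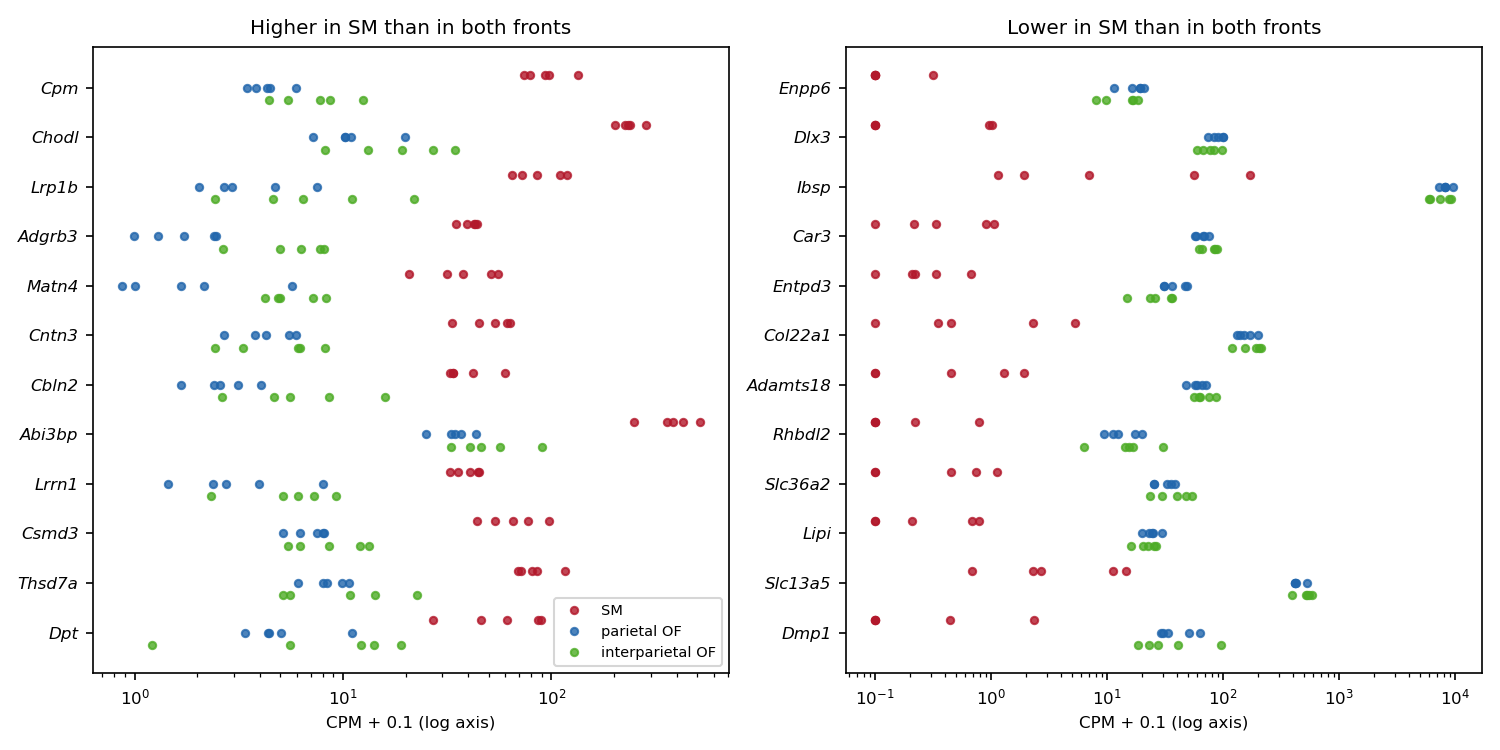
The 12 genes with the largest differences in each direction, among those called in both comparisons without overlap between SM and OF and with a mean of at least 10 CPM, are plotted as CPM plus 0.1 on a log axis, with 1 point per library and the SM, parietal OF and interparietal OF in separate rows. The red SM points lie to the right of all OF points in the left panel and to the left of all OF points in the right panel; Ibsp lies at 1.04 to 169 CPM in the SM and Cpm at 74.1 to 134 CPM.

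Genes called in both comparisons whose 5 SM libraries all lay below the 10 OF libraries numbered 1506. Called or not, 1677 genes (8.48%) had this arrangement. The 12 with the largest mean difference among those with a mean of at least 10 CPM over the 15 libraries were Enpp6, Dlx3, Ibsp, Car3, Entpd3, Col22a1, Adamts18, Rhbdl2, Slc36a2, Lipi, Slc13a5 and Dmp1. Enpp6, a choline-specific phosphodiesterase, had 2 SM reads against 840 and 637, or 338-fold and 281-fold more per read in the fronts (93.3 to 2800 and 77.5 to 2330). Slc13a5, the plasma membrane citrate transporter, was at 2.58, 2.20, 14.5, 0.580 and 11.2 CPM in the SM, 419.7, 531, 421, 417 and 412 CPM in the parietal OF, and 391, 525, 582, 515 and 548 CPM in the interparietal OF, with -6.13 ± 0.62 and -6.35 ± 0.63. That every SM library lay below every OF library was a condition for naming these 12 genes. Col22a1, a collagen of tissue junctions, ranged over 0 to 5.14 CPM in the SM, 132 to 201 CPM in the parietal OF and 119 to 211 CPM in the interparietal OF, with -6.60 ± 0.67 and -6.74 ± 0.67. Car3 (carbonic anhydrase 3) differed by -7.20 ± 0.69 and -7.43 ± 0.69 and Entpd3, an ectonucleotidase, by -7.48 ± 0.72 and -6.96 ± 0.72. Adamts18, a secreted metalloprotease, differed by -6.43 ± 0.63 and -6.63 ± 0.63, and Slc36a2, an amino acid transporter, by -6.22 ± 0.72 and -6.53 ± 0.73. Lipi and Rhbdl2, a lipase and a rhomboid protease, had 12 and 7 SM reads against 673 to 1189 in each front.

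Of 29 genes for folding, modifying and secreting collagen 15 were lower in the SM in both comparisons and 2 higher (medians -0.59 and -0.50). Against the parietal OF 17 were lower and 5 higher. Under median-ratio size factors 14 were lower and 4 higher in both, and in the 15 libraries alone with a replicate block 15 and 5. The prolyl hydroxylase subunits P4ha1 and P4ha2 differed by -2.33 ± 0.18 and -2.19 ± 0.18 and by -2.23 ± 0.21 and -1.94 ± 0.21. Serpinh1, the collagen chaperone Hsp47, ranged over 470.2 to 648 CPM in the SM, 1209.8 to 1744 CPM in the parietal OF and 1075 to 1489 CPM in the interparietal OF, with -1.45 ± 0.21 and -1.34 ± 0.21. Loxl4, a crosslinking lysyl oxidase, had the largest difference of the list, at 1.10 to 8.12 CPM in the SM and 87.9 to 133 CPM in the fronts (-4.40 ± 0.46 and -4.31 ± 0.46). Lox itself was called in neither comparison. Adamts2, which trims the collagen N-propeptide, was higher in the SM (0.74 ± 0.18 and 0.72 ± 0.18), as was P4ha3 (0.84 ± 0.23 and 1.12 ± 0.23), a further prolyl hydroxylase subunit.

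Proliferation genes were lower in the SM: 27 of 30 in both comparisons and none higher, with medians of -1.02 and -1.05. Mki67, the antigen of cycling cells, was at 258, 193, 571, 356 and 300.1 CPM in the SM, 639, 668, 670.4, 642 and 651 CPM in the parietal OF, and 538, 561, 689, 639 and 634 CPM in the interparietal OF. SM replicate 3 lay within the range of the interparietal OF, and no SM library reached the parietal OF. The differences were -0.96 ± 0.21 against the parietal OF (adjusted p = 0.000264) and -0.87 ± 0.21 against the interparietal OF (adjusted p = 0.00131). Ccna2 (cyclin A2) ranged over 24.1 to 60.3 CPM in the SM, 89.1 to 118 CPM in the parietal OF and 91.9 to 134 CPM in the interparietal OF and did not overlap, with -1.42 ± 0.17 and -1.42 ± 0.17, and Rrm2, which supplies deoxynucleotides, differed by -1.48 ± 0.22 and -1.71 ± 0.22. Kif20a, Mcm4 and Mcm6 were the members not called in both. Of the 30 genes, 19 had all SM libraries below all OF libraries, as did 8.48% of all genes tested.

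**Figure D2:**
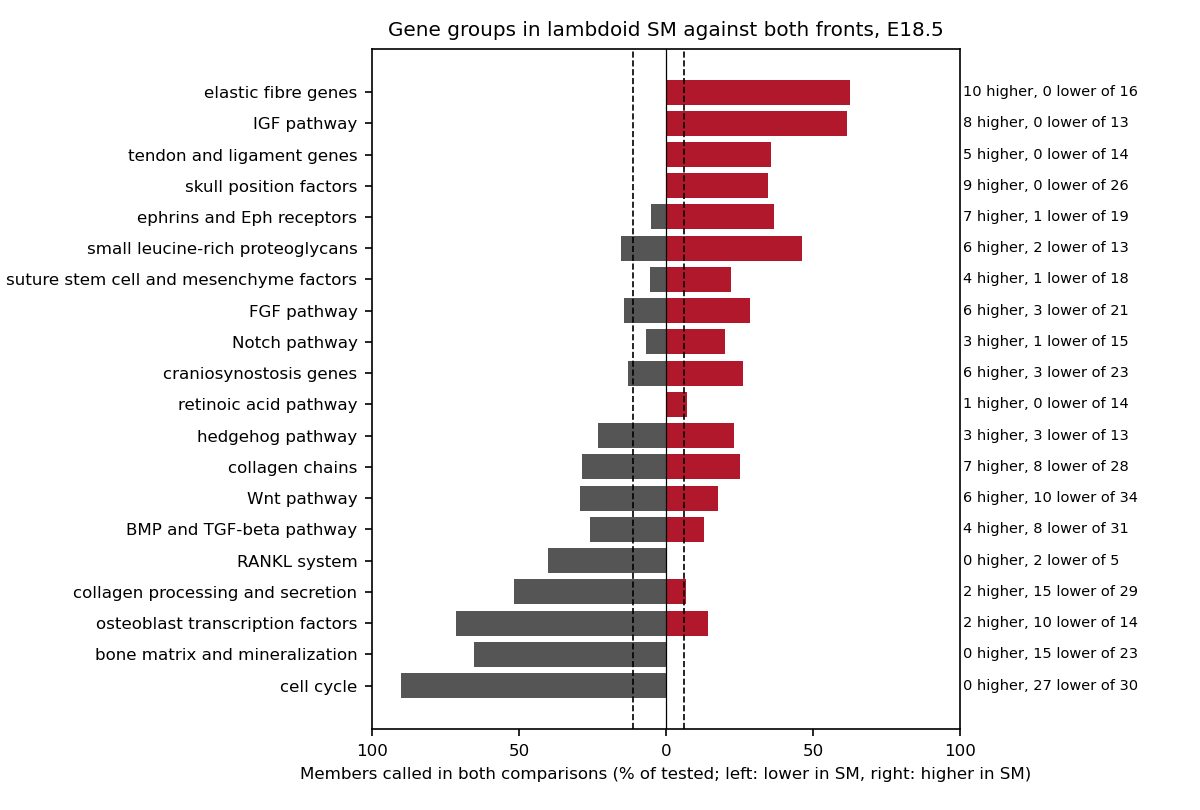
Bars give, for each gene group, the percentage of its tested members called in both comparisons, lower in the SM to the left (grey) and higher to the right (red), and dashed lines mark the same percentage over all genes, 11.2% lower and 5.96% higher. Cell cycle, bone matrix and osteoblast factors stand at one end of the order and elastic fibre and IGF genes at the other.

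Genes higher in the SM with all 5 SM libraries above the 10 OF libraries and calls in both comparisons numbered 861. Called or not, 1202 genes (6.08%) had this arrangement. The 12 with the largest mean difference, with the same minimum of 10 CPM, were Cpm, Chodl, Lrp1b, Adgrb3, Matn4, Cntn3, Cbln2, Abi3bp, Lrrn1, Csmd3, Thsd7a and Dpt, most of them for membrane or matrix proteins. Cpm, the membrane enzyme carboxypeptidase M, was at 97.5, 134, 79.1, 74.1 and 93.2 CPM in the SM, 3.35, 4.38, 5.88, 3.72 and 4.21 CPM in the parietal OF, and 12.4, 7.68, 4.30, 8.60 and 5.35 CPM in the interparietal OF. The groups did not overlap, and the differences were 4.46 ± 0.49 against the parietal OF (adjusted p = 1.88e-12) and 3.64 ± 0.47 against the interparietal OF (adjusted p = 7.28e-10). Chodl (chondrolectin, a membrane lectin) was at 237, 226, 284, 202 and 232 CPM in the SM, 10.1, 7.08, 19.7, 10.2 and 10.8 CPM in the parietal OF, and 34.5, 26.9, 19.1, 13.1 and 8.13 CPM in the interparietal OF, with 4.35 ± 0.50 and 3.54 ± 0.48. Abi3bp, an extracellular matrix protein, ranged over 248 to 516 CPM in the SM, 25.04 to 43.3 CPM in the parietal OF and 32.8 to 89.9 CPM in the interparietal OF, with 3.49 ± 0.31 and 2.87 ± 0.30. Complete separation of SM and OF was a condition for naming these 12 genes.

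Several of these genes are best known in neurons, and Lrp1b, Adgrb3, Cntn3, Csmd3 and Thsd7a each span over 300 kb of the genome. Of the 501 tested genes of such span 37.13% were higher against the parietal OF and 28.34% against the interparietal OF, and of the 8077 spanning up to 10 kb 5.93% and 4.09% were. The part of gene span in these results was not tested. Adgrb3, an adhesion receptor of synapses, ranged over 34.7 to 44.0 CPM in the SM, 0.899 to 2.37 CPM in the parietal OF and 2.56 to 7.99 CPM in the interparietal OF, with 4.59 ± 0.76 and 2.79 ± 0.69. Cntn3, a contactin, differed by 3.55 ± 0.71 and 3.31 ± 0.70, Lrrn1 by 3.45 ± 0.69 and 2.74 ± 0.66 and Csmd3 by 3.29 ± 0.63 and 2.90 ± 0.61. Lrp1b, an endocytic receptor, differed by 4.53 ± 0.71 and 3.30 ± 0.67 and Thsd7a by 3.31 ± 0.54 and 2.87 ± 0.53. Cbln2, a secreted synaptic organizer, was higher by 3.91 ± 0.87 and, less firmly, by 2.45 ± 0.81 (adjusted p = 0.0212), and the latter call was lost in 6 of its alternatives. Of 10 tested markers of neural and Schwann cells none was higher in both comparisons and 1, Tubb3, was lower (medians 0.545 and 0.59). Against the parietal OF 1 was higher and 1 lower. Under median-ratio size factors or with a replicate block 1 was higher and 1 lower in both. Matn4, a matrilin of cartilage and other matrices, was at 20.6 to 55.2 CPM in the SM against 0.771 to 8.19 CPM in the fronts, with 4.15 ± 0.73 and 2.76 ± 0.67. Dpt (dermatopontin), a collagen-binding protein of connective tissue, differed by 3.48 ± 0.65 and 2.58 ± 0.61.

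Of 16 elastic fibre genes 10 were higher in both comparisons and none lower in either (medians 1.34 and 1.15). Fbn2, the fibrillin of developing tissue, was at 1061, 1128, 688, 866 and 1002 CPM in the SM, 219, 231, 213, 169 and 252 CPM in the parietal OF, and 398, 359, 271, 220.1 and 260.4 CPM in the interparietal OF. The groups did not overlap, with 2.13 ± 0.29 against the parietal OF (adjusted p = 5.21e-09) and 1.65 ± 0.29 against the interparietal OF (adjusted p = 3.51e-06). Eln (tropoelastin) ranged over 237 to 310 CPM in the SM, 89.5 to 133 CPM in the parietal OF and 69.5 to 131 CPM in the interparietal OF, with 1.34 ± 0.20 and 1.42 ± 0.21. Fbn1 differed by 1.42 ± 0.24 and 1.19 ± 0.23, and the fibulins Fbln5 by 2.40 ± 0.29 and 1.78 ± 0.28 and Fbln2 by 1.34 ± 0.28 and 1.02 ± 0.28. Mfap4 differed by 1.84 ± 0.21 and 1.93 ± 0.21. Efemp2 and Emilin1 were called in neither comparison.

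Small leucine-rich proteoglycans split. Dcn (decorin), Bgn (biglycan), Ogn, Aspn, Kera and Epyc were higher in the SM in both comparisons, 6 of 13. Omd (osteomodulin, of bone) and Chad were lower. Dcn ranged over 438 to 683 CPM in the SM, 159 to 250 CPM in the parietal OF and 102 to 237 CPM in the interparietal OF, with 1.54 ± 0.28 and 1.93 ± 0.28, and Omd over 1.59 to 4.50 CPM in the SM, 21.2 to 45.3 CPM in the parietal OF and 22.6 to 34.1 CPM in the interparietal OF, with -3.68 ± 0.38 and -3.60 ± 0.38.

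Collagen chains split as well, with 7 of 28 higher and 8 lower in both comparisons, and 4 higher with replicates 3 to 5 alone. Col14a1, a fibril-associated collagen, was at 312 to 590.2 CPM in the SM and 47.6 to 121 CPM in the fronts, with 2.86 ± 0.50 and 2.31 ± 0.49. Col3a1 and Col12a1 were higher by 0.82 ± 0.14 and 0.89 ± 0.14 and by 0.53 ± 0.13 and 0.76 ± 0.13. On the other side, Col11a2 ranged over 2.70 to 20.2 CPM in the SM, 250 to 437 CPM in the parietal OF and 251 to 391 CPM in the interparietal OF, with -5.04 ± 0.42 and -5.04 ± 0.42, and Col24a1, a fibrillar collagen of developing bone, was lower, at -2.15 ± 0.22 and -1.99 ± 0.22. Of 14 tendon and ligament genes 5 were higher in both comparisons and none lower in both (6 and 2 against the parietal OF), and 2 were higher with replicates 3 to 5 alone. Among the 5 were the factors Scx (1.73 ± 0.60 and 2.15 ± 0.61) and Mkx (0.88 ± 0.23 and 0.88 ± 0.23). Thbs2, a matrix glycoprotein, was at 3567 to 4268 CPM in the SM against 979 to 1777 CPM in the fronts, with 1.67 ± 0.14 and 1.45 ± 0.14.

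Of 13 tested insulin-like growth factor genes 8 were higher in the SM in both comparisons and none lower in both (medians 1.43 and 1.16). Against the parietal OF 8 were higher and 1 lower. All SM libraries lay above all OF libraries for 9 genes of the list and below them for 1, against 6.08% and 8.48% of all genes tested. Igf1, the ligand, was at 515, 463, 500.1, 372 and 397 CPM in the SM, 80.0, 66.6, 83.2, 88.1 and 83.0 CPM in the parietal OF, and 124, 89.2, 70.9, 70.9 and 75.4 CPM in the interparietal OF. The groups did not overlap, and the differences were 2.49 ± 0.30 against the parietal OF (adjusted p = 7.31e-11) and 2.38 ± 0.30 against the interparietal OF (adjusted p = 3.61e-10). Igfbp5, a binding protein, ranged over 2991 to 4080.3 CPM in the SM, 1045 to 1322 CPM in the parietal OF and 961 to 2034 CPM in the interparietal OF, with 1.62 ± 0.28 and 1.36 ± 0.28, and Igfbp4 differed by 1.42 ± 0.20 and 1.30 ± 0.20. Pappa, a protease that frees IGF from its binding proteins, differed by 2.51 ± 0.48 and 2.54 ± 0.48, and Pappa2 by 1.43 ± 0.26 and 1.16 ± 0.26. The receptor Igf1r was called in neither comparison (0.23 ± 0.11 and 0.15 ± 0.11), and the ligand Igf2 was not either (0.39 ± 0.18 and 0.38 ± 0.18), although its SM libraries all lay above the fronts.

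Mesenchyme factors and position factors were in part higher. Of 18 genes used as suture stem cell or mesenchyme markers 4 were higher in both comparisons and 1 lower, with medians of 0.004 and 0.066. Six2 was at 29.8, 25.6, 23.6, 19.7 and 24.99 CPM in the SM, 2.70, 2.92, 5.30, 6.32 and 4.58 CPM in the parietal OF, and 2.85, 1.89, 3.36, 2.34 and 1.78 CPM in the interparietal OF. The groups did not overlap, with 2.498 ± 0.29 against the parietal OF (adjusted p = 3.57e-11) and 3.33 ± 0.32 against the interparietal OF (adjusted p = 6.18e-15). Twist1, whose loss of function causes craniosynostosis, was at 42.7, 60.0, 55.4, 64.1 and 50.2 CPM in the SM and 19.1 to 35.6 CPM in the fronts, with 1.24 ± 0.19 and 0.96 ± 0.19. Prrx1 and Zeb1 were higher by 0.85 ± 0.11 and 0.74 ± 0.11 and by 0.76 ± 0.16 and 0.83 ± 0.16. Gli1 and Axin2, used to mark suture stem cells by lineage tracing, were called in neither comparison: Gli1 was at 48.7 to 120.4 CPM in the SM and 98.1 to 131 CPM in the fronts. Lepr was lower (-0.82 ± 0.28 and -1.24 ± 0.28), a call no longer made in both comparisons under median-ratio size factors or total counts, without SM replicate 5 and with replicates 3 to 5 alone.

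Of 26 tested skull position factors 9 were higher in both comparisons and none lower in both (13 and 1 against the parietal OF). With replicates 3 to 5 alone 5 were higher in both, and 6 against the parietal OF. Zic1 (1.42 ± 0.19 and 1.38 ± 0.19), Zic4 (1.89 ± 0.37 and 1.70 ± 0.37) and Foxc1 (1.85 ± 0.31 and 2.17 ± 0.32) are factors that pattern head mesenchyme. The suture mesenchyme markers named by the study were chosen on these samples among others and are no independent evidence of direction: of 11, 7 were higher in both comparisons and 1, Hhip, was lower. Cd34 (1.84 ± 0.23 and 1.75 ± 0.23) and Adamts8 (2.77 ± 0.49 and 2.42 ± 0.48) were among the higher ones.

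Hedgehog genes went in both directions, and no test compared their roles. Ihh, the ligand, was at 0.117, 0.122, 0.214, 0.116 and 1.38 CPM in the SM, 20.3, 19.9, 14.9, 16.9 and 22.2 CPM in the parietal OF, and 18.4, 23.4, 11.8, 17.6 and 16.2 CPM in the interparietal OF. The SM libraries held 0.116 to 1.38 CPM, the highest in replicate 5, and did not overlap the fronts, with -5.56 ± 0.75 against the parietal OF (adjusted p = 3.21e-09) and -5.45 ± 0.75 against the interparietal OF (adjusted p = 6.93e-09). Ptch1, the receptor and a target of the pathway, ranged over 124 to 357 CPM in the SM, 777 to 1009.7 CPM in the parietal OF and 686 to 1031 CPM in the interparietal OF, with -1.88 ± 0.22 and -1.76 ± 0.22. Hhip, a membrane-bound inhibitor and also a target, was at 16.8, 5.63, 38.1, 37.0 and 16.51 CPM in the SM and 90.2 to 143 CPM in the fronts, with -2.38 ± 0.36 and -2.32 ± 0.35. The co-receptors went the other way: Cdon was higher in the SM by 1.72 ± 0.17 and 1.45 ± 0.17, Gas1 by 1.28 ± 0.25 and 1.16 ± 0.25 and Boc by 1.01 ± 0.21 and 0.79 ± 0.21. Smo, Gli1, Gli2 and Gli3 were called in neither comparison. In all, 3 of 13 were higher in both and 3 lower.

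Of 21 tested FGF genes 6 were higher in both comparisons, 3 were lower and 12 were called in neither. With replicates 3 to 5 alone 2 were higher and 2 lower. The receptors Fgfr2 and Fgfr3 were lower in the SM: Fgfr2 was at 267, 227, 429, 329.5 and 330.2 CPM in the SM, 709, 556, 644, 717 and 617 CPM in the parietal OF, and 644, 621, 606, 546 and 559 CPM in the interparietal OF. The groups did not overlap, with -1.03 ± 0.14 against the parietal OF (adjusted p = 3.58e-09) and -0.91 ± 0.14 against the interparietal OF (adjusted p = 1.71e-07). Fgfr3 differed by -1.50 ± 0.27 and -1.77 ± 0.27. Fgfr1 was called in neither (-0.01 ± 0.14 and -0.13 ± 0.14). The ligands Fgf2 (1.14 ± 0.19 and 0.90 ± 0.19), Fgf9 (2.16 ± 0.67 and 2.47 ± 0.68), Fgf10 (2.27 ± 0.68 and 3.84 ± 0.78) and Fgf18 (2.46 ± 0.52 and 1.68 ± 0.50) were higher. Fgf18, at 17.04 to 43.7 CPM in the SM, overlapped the fronts in 1 library, the interparietal OF of replicate 2 at 17.4 CPM. Il17rd and Spred1, inhibitors of the pathway, were higher and Etv5, a transcriptional target, was lower (-1.39 ± 0.29 and -1.07 ± 0.29). Spry1, Spry2, Spry4 and Dusp6 were called in neither comparison.

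In the BMP and TGF-beta group 4 of 31 genes were higher in both comparisons and 8 lower, and 5 were lower without replicate 5 or with replicates 3 to 5 alone. Bmp2 was at 4.58, 4.53, 9.43, 5.80 and 4.47 CPM in the SM, 43.5, 46.8, 37.4, 47.4 and 44.2 CPM in the parietal OF, and 34.5, 29.1, 42.8, 38.4 and 43.9 CPM in the interparietal OF, with -2.92 ± 0.27 against the parietal OF (adjusted p = 1.64e-15) and -2.71 ± 0.27 against the interparietal OF (adjusted p = 5.58e-14), and did not overlap. Bmp3, an inhibitory member of the family, differed by -2.55 ± 0.35 and -2.35 ± 0.34, Bambi, a decoy receptor, by -3.19 ± 0.28 and -3.23 ± 0.28 and Tgfb1 by -2.77 ± 0.33 and -2.53 ± 0.32. Bmp4 and Bmp7 were called in neither. On the higher side stood Tgfb3 (0.85 ± 0.19 and 0.80 ± 0.19), the receptors Tgfbr2 (1.23 ± 0.15 and 1.31 ± 0.15) and Tgfbr3 (1.68 ± 0.23 and 1.25 ± 0.23), and Ltbp2 (2.37 ± 0.45 and 2.08 ± 0.45), a latent TGF-beta binding protein family member, whereas the receptor Tgfbr1 was lower (-0.54 ± 0.15 and -0.50 ± 0.15).

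In the Wnt group 6 of 34 genes were higher in both comparisons and 10 lower. R-spondins amplify Wnt signals, and Rspo2 and Rspo3 were higher whereas Rspo1 was called in neither comparison. Rspo3 was at 35.0, 50.6, 39.1, 26.4 and 34.6 CPM in the SM and 4.40 to 12.6 CPM in the fronts (2.44 ± 0.47 and 2.10 ± 0.47), and Rspo2 differed by 2.77 ± 0.70 and 2.38 ± 0.69. The R-spondin receptor Lgr5 was higher too (5.52 ± 0.79 and 2.78 ± 0.62), with 4.93 to 22.4 CPM in the SM and at most 0.733 and 3.99 CPM in the fronts. The secreted inhibitors split. Sfrp2 was at 2649, 2569, 1683, 1921 and 2587 CPM in the SM, 265, 327, 264, 199 and 279 CPM in the parietal OF, and 671, 581, 359, 269.7 and 351 CPM in the interparietal OF. It was higher in the SM without overlap, with 3.10 ± 0.29 against the parietal OF (adjusted p = 1.85e-15) and 2.35 ± 0.28 against the interparietal OF (adjusted p = 5.31e-11), and Dkk3 was higher by 1.14 ± 0.15 and 1.27 ± 0.15. Dkk1 (-6.17 ± 0.70 and -6.07 ± 0.70), Wif1 (-1.98 ± 0.24 and -2.23 ± 0.24) and Frzb (-4.33 ± 0.74 and -4.31 ± 0.74) were lower. Among the ligands Wnt11 was higher (2.48 ± 0.53 and 2.10 ± 0.52), and Wnt10b (-3.54 ± 0.45 and -3.26 ± 0.45), Wnt10a and Wnt6 were lower. Wnt10a had 1 SM read against 182 and 121, and Wnt6 had 3 against 48 and 52, a ratio of 12.9 and 15.3 per read (4.15 to 64.6 and 4.95 to 76.6). Axin2 and Lef1 were called in neither comparison.

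**Figure D3:**
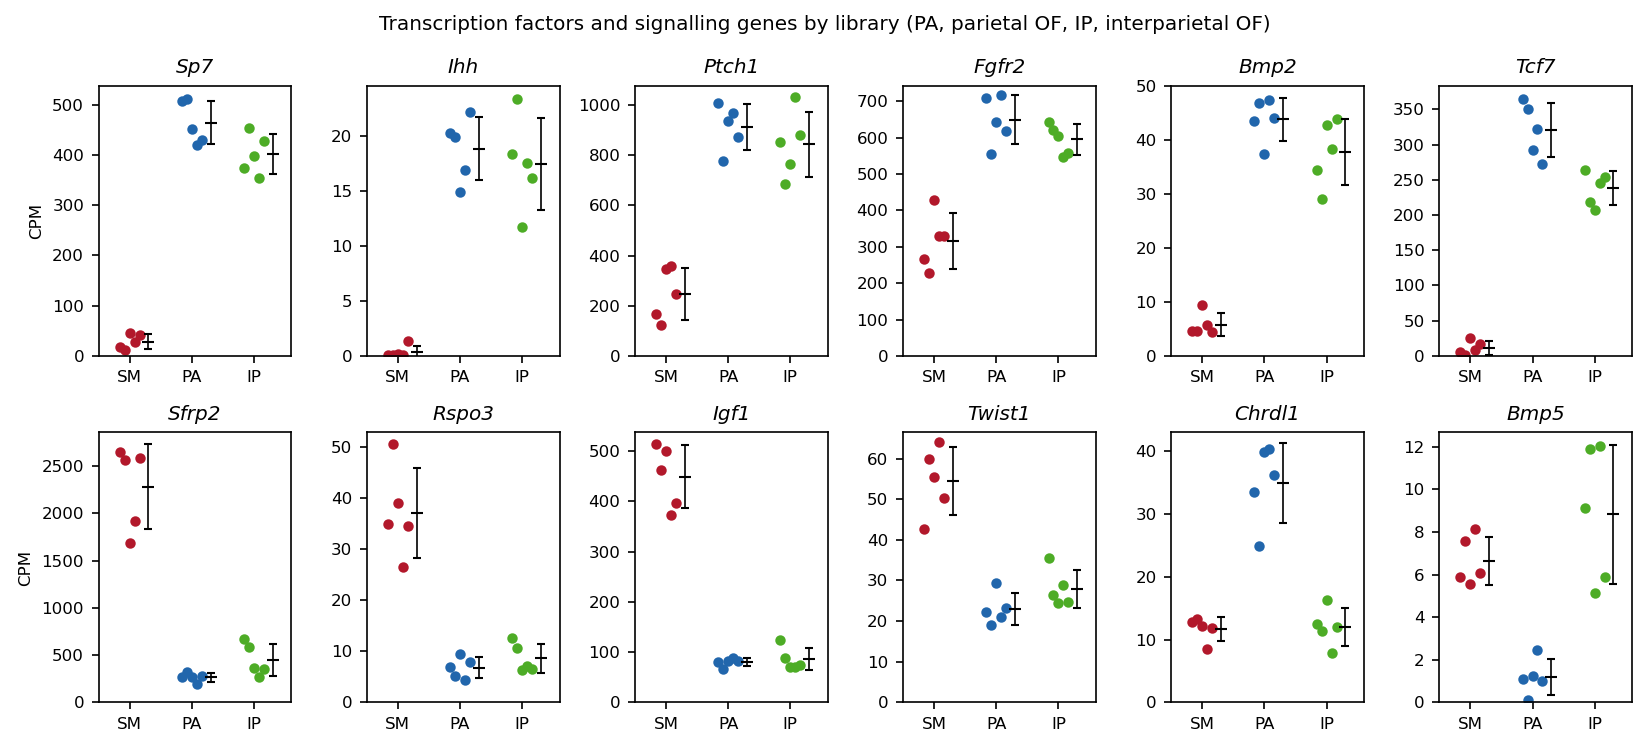
CPM of 12 transcription factors and signalling genes is plotted per library for the SM, the parietal OF (PA) and the interparietal OF (IP), with the mean and SD of 5 libraries in black. Sp7, Ihh, Ptch1, Fgfr2, Bmp2 and Tcf7 are lower in the SM than in both fronts, Sfrp2, Rspo3, Igf1 and Twist1 are higher, and Chrdl1 and Bmp5 differ between the fronts.

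In the Notch group, Notch2, Notch3 and Jag1 (a ligand, 1.11 ± 0.22 and 1.01 ± 0.22) were higher and Lfng, which modifies Notch, was lower (-1.95 ± 0.42 and -1.41 ± 0.42), 4 of 15 called in both. With replicates 3 to 5 alone, and without replicate 5, 2 were higher in both and Lfng was no longer called in both. Of 19 ephrins and Eph receptors 7 were higher and 1 lower in both comparisons, and 4 were higher with replicates 3 to 5 alone. Epha5 (2.35 ± 0.39 and 1.56 ± 0.38), Epha7 (1.57 ± 0.26 and 1.79 ± 0.26) and the ligand Efnb2 (1.21 ± 0.23 and 0.91 ± 0.23) were higher, and Epha2 was lower (-2.21 ± 0.46 and -2.501 ± 0.46). Efnb1, whose mutation causes craniofrontonasal syndrome, was called in neither. Of 14 tested retinoic acid genes Aldh1a1, a synthesis enzyme, alone was called in both (2.58 ± 0.80 and 2.49 ± 0.80), and none was with replicates 3 to 5 alone. Over all genes 5.96% were higher in both, so 1 of 14 lies near that share. In the RANKL system, which controls osteoclasts, Tnfrsf11b (osteoprotegerin, -1.79 ± 0.43 and -1.88 ± 0.43) and Tnfrsf11a (the receptor RANK, -1.79 ± 0.38 and -1.63 ± 0.38) were lower in the SM, and the ligand Tnfsf11 was at most 1.93 CPM in any library.

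Of 23 genes whose mutations cause craniosynostosis, 6 were higher in the SM in both comparisons, namely Fbn1, Il11ra1, Msx2, Rab23, Twist1 and Zic1, and 3 were lower, namely Fgfr2, Fgfr3 and Runx2. Il11ra1, an interleukin receptor subunit, ranged over 77.0 to 106 CPM in the SM, 28.6 to 47.4 CPM in the parietal OF and 29.3 to 59.0 CPM in the interparietal OF, with 1.27 ± 0.23 and 1.09 ± 0.23. Rab23, a regulator of hedgehog signalling, differed by 1.23 ± 0.17 and 1.23 ± 0.17. The remaining members, among them Tcf12, Erf and Alx4, were not called in both. The medians of the list were 0.20 and 0.22.

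Markers of other cell types differed between the regions for some types. Over all genes tested 5.96% were higher in both comparisons and 11.2% lower. No list was tested against these shares, and 1 call in a short list lies close to them. The summed level of the mast cell list was 296 to 473 CPM in the SM, 36.8 to 71.7 CPM in the parietal OF and 63.8 to 171 CPM in the interparietal OF. All 6 tested members were higher against the parietal OF, and Kit and Tpsb2 were also called against the interparietal OF. Without SM replicate 5 no member was called in both, and with a replicate block 4 were. The chondrocyte list summed to 794 to 861 CPM in the SM, 461 to 537 CPM and 414 to 506 CPM in the fronts, with Acan, Col9a3, Matn4 and Sox5 higher and Chad lower in both, of 15 tested. Its median difference was 1.182 against the parietal OF but 0.036 against the interparietal OF, and 7 members were called in neither comparison. With a replicate block 5 members were higher and 2 lower in both. Acan (aggrecan) was higher by 1.79 ± 0.25 and 2.12 ± 0.25, whereas Sox9 was called in neither. The hypodermis list summed to 349 to 815 CPM in the SM against 176 to 277 CPM and 174 to 355 CPM, with Dlk1, Dpp4 and Sema3c higher in both, of 9. With a replicate block, without replicate 5 or with replicates 3 to 5 alone 2 were, and in the 15 libraries alone with a replicate block 8. The part of these lists in the matrix and IGF results was not tested. Of 16 dura markers 2 were higher and 1 lower in both, and of 12 endothelial, 14 macrophage and 8 erythroid markers none was called in both. In the 15 libraries alone with a replicate block 3 of 12 dura markers were higher in both and 3 lower. In that fit 4 of 14 macrophage and 3 of 8 erythroid markers were higher in both, and no endothelial marker was called in both. Over all genes that fit called 4823 of 20166 in both. The macrophage list summed to 219 to 411 CPM in the SM, 191 to 233 CPM in the parietal OF and 148 to 210 CPM in the interparietal OF, so that the SM did not overlap the interparietal OF. The erythroid sum was highest in replicate 5 in every region. It reached 6906 CPM in the SM, 2564 CPM in the parietal OF and 3908 CPM in the interparietal OF, against group medians of 679, 334 and 284 CPM. Of the osteoclast list Nfatc1 was higher and Tnfrsf11a lower in both, of 8 tested. Of 11 pericyte and smooth muscle markers Pdgfrb and Abcc9 were higher and Acta2 and Cspg4 lower in both. A single marker was lower in both under either other scaling, without SM replicate 3, without replicate 5 and with replicates 3 to 5 alone. Skeletal muscle (Myh8 higher, of 8) and epidermis (Sfn lower, of 4) contributed 1 call each. The epidermis call was lost without SM replicate 3, SM replicate 5 or replicate 5, and the skeletal muscle call without replicate 5. The 8 neutrophil markers did not pass the filter, and their sum was at most 1.88 CPM in any library.

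**Figure D4:**
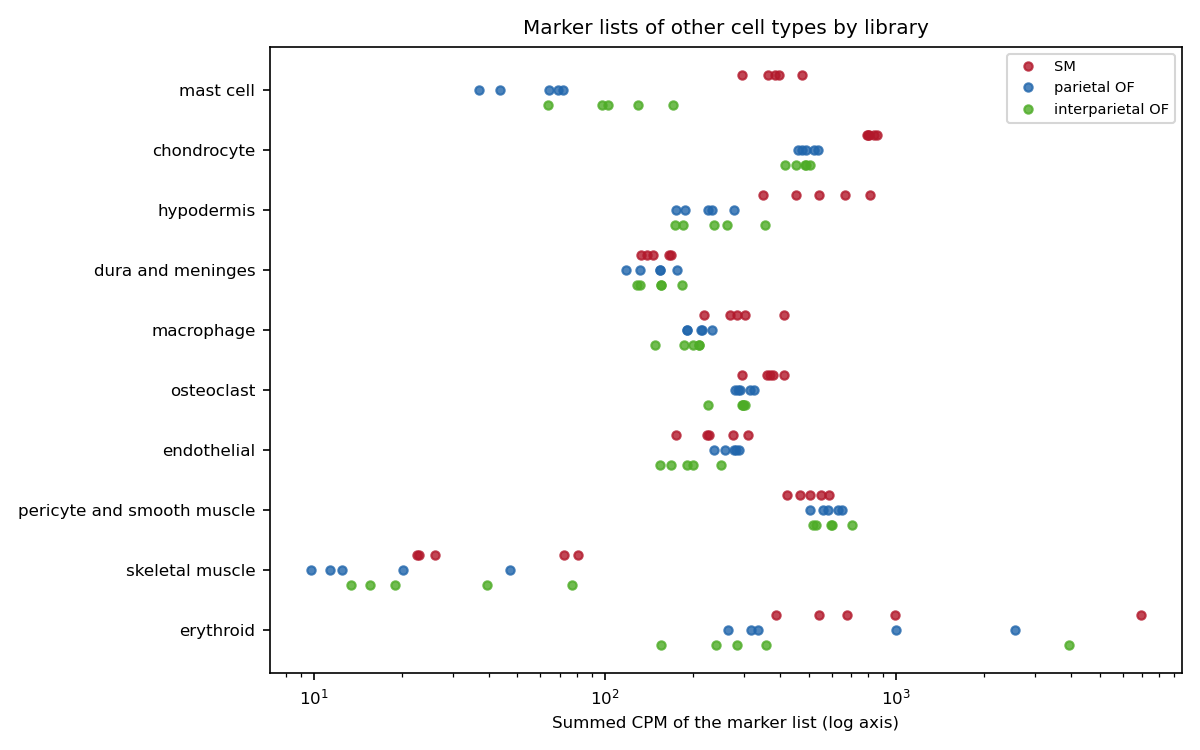
Summed CPM of the marker list of each cell type is plotted per library on a log axis. The mast cell, chondrocyte and hypodermis sums of the SM lie above or mostly above those of both fronts, the dura sums overlap, and the erythroid sum reaches 6906 CPM in 1 SM library.

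The test of interparietal against parietal OF called 2 genes (0.0101%), 1 in each direction, and 581 genes had an unadjusted p under 0.05. DESeq2 called 9 genes, the 15 libraries fitted alone 9, and the 15 alone with a replicate block 27. The DESeq2 calls include BC006965 (-23.5), Caln1 (19.1), Tvp23bos (-19.4) and Gm10646 (-17.4), extreme log2 values of genes that no other model called. Chrdl1, a secreted inhibitor of BMP signals, was at 12.8, 13.3, 12.1, 8.47 and 11.9 CPM in the SM, 33.5, 24.8, 39.9, 40.4 and 36.3 CPM in the parietal OF, and 12.4, 11.4, 16.3, 7.95 and 12.03 CPM in the interparietal OF. The parietal OF libraries all lay above the SM and the interparietal OF, which overlapped each other. The difference of interparietal minus parietal OF was -1.54 ± 0.31 (adjusted p = 0.0242), and the SM differed by -1.58 ± 0.31 and -0.03 ± 0.31 from the parietal and the interparietal OF. Bmp5, a ligand of the same family, was at 5.87, 7.59, 5.57, 8.12 and 6.07 CPM in the SM, 1.08, 0.112, 1.25, 2.48 and 1.01 CPM in the parietal OF, and 9.13, 11.9, 5.14, 12.1 and 5.90 CPM in the interparietal OF. Here the parietal OF was low and the other groups overlapped. The interparietal OF was higher by 2.89 ± 0.49 (adjusted p = 0.00103), and the SM differed by 2.48 ± 0.48 and -0.41 ± 0.44. Both genes were called between the fronts in 10 of 12 models. Over all 31 alternatives, left-out libraries included, the Chrdl1 call was lost in 14. Leaving out all libraries of 1 number left 1 call for replicates 1, 3, 4 and 5 and 0 for replicate 2, where 401 genes had an unadjusted p under 0.05. Chrdl1 was not called in any of these 5 fits. Leaving out 1 library left 1 call for the parietal OF of replicates 3, 4 and 5 and the interparietal OF of replicates 1, 2, 4 and 5, and 2 otherwise. Chrdl1 was the gene lost each time.

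Most genes called in 1 comparison alone were not shown to differ between the fronts. Such genes numbered 1463 against the parietal OF (7.4%) and 468 against the interparietal OF (2.37%). Of these 1931 genes 1910 had the same sign in the other comparison, and only Chrdl1 and Bmp5 were called between the fronts. Among list members, chosen here as examples after their values were seen, Aldh1a2, a retinoic acid synthesis enzyme, differed by 2.86 ± 0.76 and 1.06 ± 0.66, Mfap5 by 3.08 ± 0.74 and 1.51 ± 0.69, Cyp26b1 by 1.01 ± 0.29 and 0.48 ± 0.29 and Col5a3 by 2.21 ± 0.60 and 1.11 ± 0.58, called against the parietal OF alone. Col6a2 (0.33 ± 0.13 and 0.60 ± 0.13) and Mrc1, a macrophage marker (0.47 ± 0.22 and 0.63 ± 0.22), were called against the interparietal OF alone.

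The difference between SM and OF was set against that of the lambdoid suture at E16.5, where 15 libraries were used in the same way. No lambdoid litter label, nor its leading part, is shared between the stages, so stage cannot be told apart from litter. The interaction of region and stage was called for 25 genes (0.126%), 8 with a more positive difference at E18.5 and 17 with a more negative one. With a replicate block 49 genes were called, with limma-voom 0 (550 at an unadjusted p under 0.05) and with replicates 3 to 5 alone 6. Without replicate 1 or 2 of all regions 11 and 14 were called, and without the SM library of replicate 1 or 2 16 and 15. Among the genes also called in both comparisons, Bmp3 went from -0.33 ± 0.28 at E16.5 to -2.45 ± 0.32 at E18.5 (change -2.13 ± 0.41, adjusted p = 0.00387). Cdkn1a, an inhibitor of cyclin-dependent kinases, went from -2.46 ± 0.28 to -4.63 ± 0.32 (adjusted p = 0.00115), with 6.81, 4.53, 7.61, 9.86 and 10.7 CPM in the E18.5 SM and 137 to 242 CPM in the fronts. Tppp3, a microtubule-associated protein, went from 0.34 ± 0.37 to -2.64 ± 0.43, and Adamts18 from -3.32 ± 0.47 to -6.53 ± 0.61. In the other direction, Socs2, an inhibitor of cytokine signals, went from 0.39 ± 0.20 to 1.70 ± 0.18 and Abca1, a cholesterol exporter, from 0.05 ± 0.16 to 1.05 ± 0.16. Syne1, a nuclear envelope protein, went from -1.74 ± 0.14 to -0.98 ± 0.13. The changes of these last 3 had adjusted p = 0.0102, 0.043 and 0.0364. Of 29 alternatives for each gene, the stage call was lost in 15 for Abca1, 14 for Syne1, 9 for Adamts18, 3 for Socs2, 2 for Cdkn1a and 1 each for Bmp3 and Tppp3.

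Against the mean of the coronal, frontal and sagittal sutures at E18.5, the interaction was called for 95 genes (0.481%), 32 more positive and 63 more negative in the lambdoid suture. This balance depended on the processing: median-ratio size factors gave 49 and 38, DESeq2 62 and 61, and the filterByExpr filter 49 and 49. No full litter label at E18.5 is shared between sutures. Some lambdoid and sagittal labels differ only in their last number, and whether these stand for 1 litter is not given. Total counts were 20133332 to 29099736 in the coronal and 13162255 to 16871945 in the sagittal libraries, above the lambdoid ones. The interaction therefore cannot tell suture apart from the embryos or litters behind the labels or, in part, from depth. Leaving out all libraries of 1 number left 34 to 56 genes. Leaving out 1 library left 49 to 56 for SM replicates 1 to 3, 63 for parietal replicate 4, 54 to 61 for interparietal replicates 3 to 5, and up to 90 otherwise. Bmper, a secreted BMP regulator, had its smallest fitted difference here: -1.25 ± 0.30 in the lambdoid, -2.51 ± 0.35 in the sagittal, -3.28 ± 0.38 in the frontal and -3.62 ± 0.36 in the coronal suture (interaction 1.88 ± 0.34, adjusted p = 0.00118). Efemp1, a fibulin, was at 36.3 to 74.6 CPM in the lambdoid SM and 4.34 to 13.3 CPM in its fronts. Its difference was 2.65 ± 0.29 here, 2.64 ± 0.38 in the sagittal, -0.11 ± 0.35 in the frontal and 0.12 ± 0.29 in the coronal suture (adjusted p = 0.00395). Eya1, a transcriptional co-activator, was higher in the lambdoid SM by 2.37 ± 0.28 (interaction 1.30 ± 0.33, adjusted p = 0.0417), and Ctnna2, an alpha-catenin, by 2.21 ± 0.41 (interaction 2.08 ± 0.51, adjusted p = 0.0316). Of 29 alternatives for each gene, the suture call was lost in 17 for Eya1, 9 for Ctnna2, 2 for Efemp1 and 0 for Bmper. For the 3 genes higher in the SM the sagittal difference lay closer to the lambdoid one than the frontal difference did.

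Of the genes more negative here, Ano1, a calcium-activated chloride channel, was at 0.367 to 4.93 CPM in the lambdoid SM and 105 to 179.6 CPM in its fronts. Its difference was -5.91 ± 0.43 here, -5.19 ± 0.41 in the sagittal, -4.39 ± 0.41 in the frontal and -0.95 ± 0.30 in the coronal suture (interaction -2.40 ± 0.43, adjusted p = 0.00115). Entpd3, with only 9 reads over all lambdoid SM libraries, had an interaction of -3.82 ± 0.76 (adjusted p = 0.00395). Acta2, smooth muscle actin, had a difference of -1.001 ± 0.29 here, -0.86 ± 0.28 in the coronal, 0.55 ± 0.32 in the sagittal and 3.10 ± 0.35 in the frontal suture, with an interaction of -1.93 ± 0.34 (adjusted p = 0.00115). Gprin3 differed by -1.999 ± 0.37 here and by -0.61 ± 0.37 in the sagittal, -0.56 ± 0.36 in the frontal and 0.42 ± 0.32 in the coronal suture (adjusted p = 0.0206). The call was lost in 12 of 29 alternatives for Gprin3, 2 for Ano1, 2 for Entpd3 and 0 for Acta2.

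**Figure D5:**
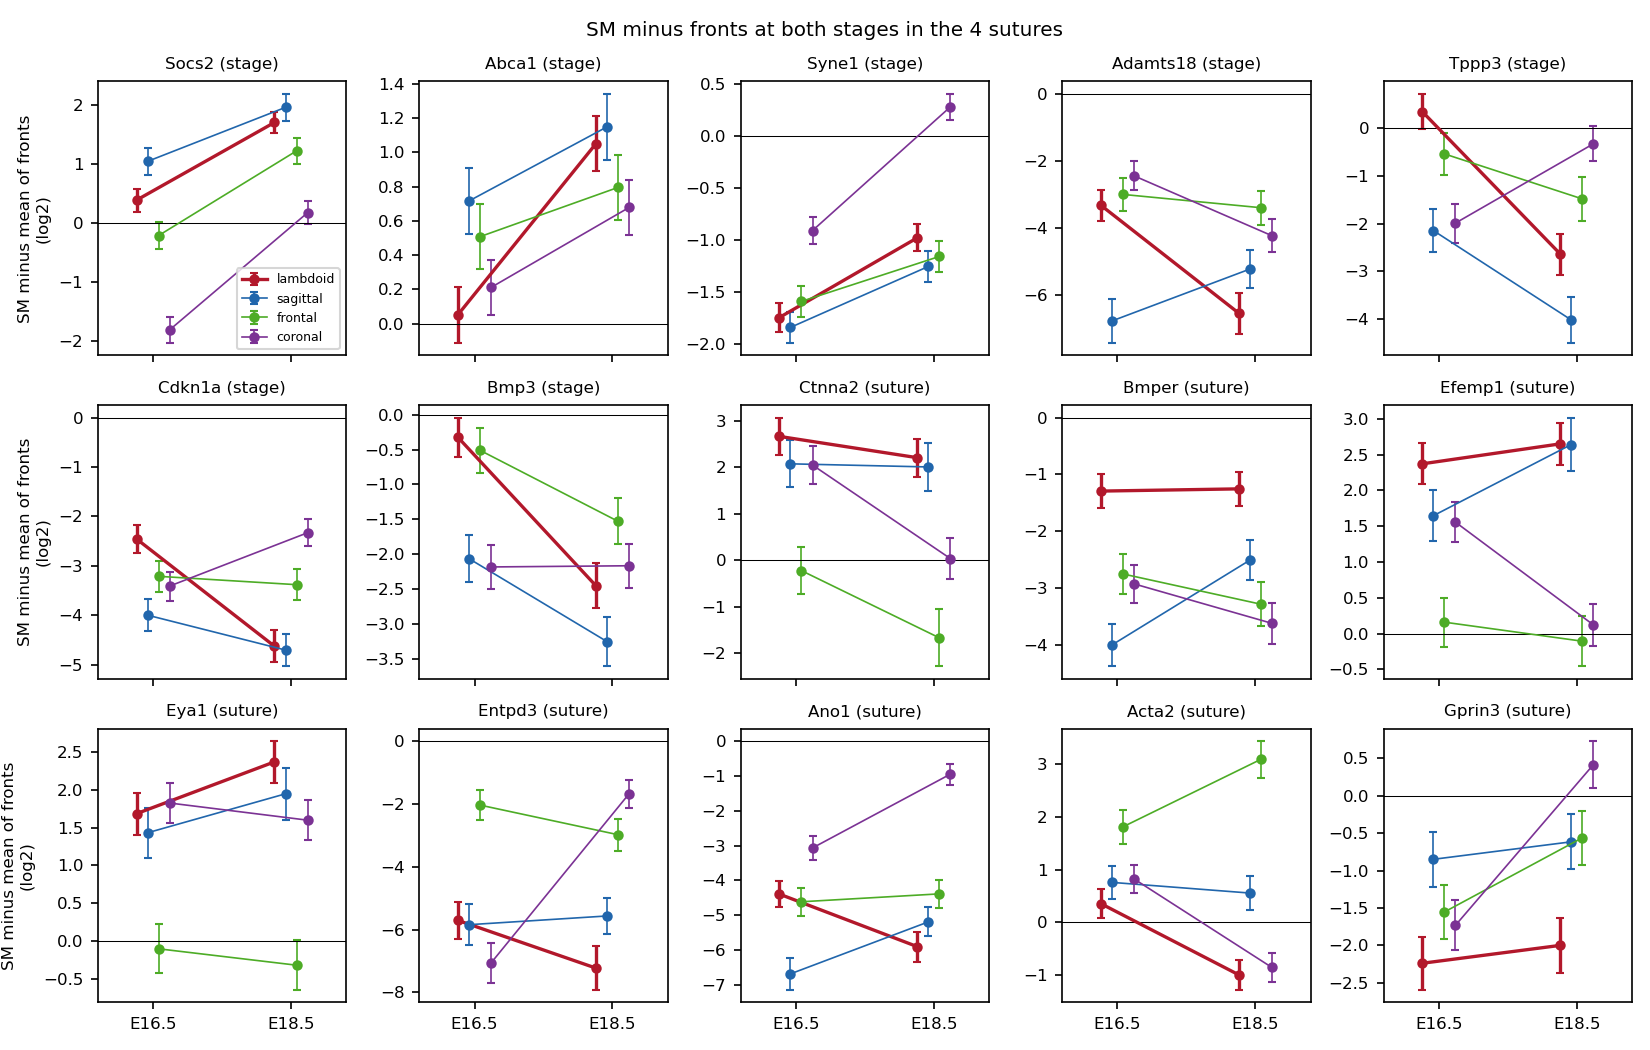
For the 15 genes named by the interaction tests, the fitted log2 difference of SM minus the mean of the fronts is plotted at E16.5 and E18.5 in the lambdoid (red), sagittal (blue), frontal (green) and coronal (purple) suture, with the SE as error bars; the panel title names the interaction called, stage or suture. Bmp3 in the lambdoid suture falls from -0.33 to -2.45 between the stages, and Bmper lies above the other sutures at both.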

How the data were processed

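Sutures of C57BL/6J mouse embryos were laser-captured, and RNA was amplified and sequenced per region. The deposited values are whole-number read counts per gene, made by the authors with cutadapt, STAR 2.5.3a on mm10 and featureCounts 1.6.4 without strand, not normalized. Gene symbols were matched for 55394 of 55487 gene IDs. A further deposited table of log2 ratios between groups holds the authors' own comparisons and was not used. The members and gene lists were chosen with earlier results of these data known. Counts of the 100 captured libraries (20 groups, 1 run each) were fitted with edgeR 4.0.16 in R 4.3.3 (TMM, quasi-likelihood test, Benjamini-Hochberg adjusted p under 0.05 over 19768 genes), after dropping genes that reached 1 CPM in no more than 10% of the libraries. All groups share 1 estimate of the spread. The SE is the log2 difference divided by the square root of F. Total counts of the 15 libraries were 7305627 to 10439953 (median 8598662), and their number and counting error limit the precision of low genes. Named genes were called in both comparisons with a mean of at least 10 CPM and no overlap of SM and OF (12 per direction by mean difference), called in 1 comparison and between the fronts (up to 6 per front), or called in both and by an interaction test (up to 4 per direction). Bmp5 lay under 10 CPM and was named as a list member. Genes named within a list were picked as examples by role with their values known. Litter labels pair the libraries: 15 same-number correlations of deviations had a median of 0.0369 (0.0035 to 0.1357), and 60 others -0.01365. Alternatives were DESeq2 1.42.0, limma 3.58.1 (voom), other size factors and filters, a replicate block, subsets of libraries and left-out replicates. On simulated data the fit recovered 61 of 100 2-fold changes against the parietal OF and 60 of 100 against the interparietal OF. It recovered 92 of 100 4-fold changes against each. The changed genes had a mean of at least 5 CPM, and 5 and 8 unchanged genes were called. A gene that was not called is thus not shown to be equal between SM and OF. Promoter sequences are from RefSeq (GRCm38.p6).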

Additional observations from a re-analysis of the deposited data

Results flagged for a closer look

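In 288 groups of 5 libraries, 1 library stood apart from the other 4 in 19, where chance gives about 1 in 20 for values with a normal spread. That rate does not hold for groups of few reads, such as Enpp6, Rhbdl2 and Dmp1 in the SM. SM replicate 3 stood above the other SM libraries for Dmp1 (2.25 CPM, median 0), Bmp2 (9.43 CPM, median 4.58) and Enpp6 (0.214 CPM, median 0). SM replicate 5 stood above them for Ihh (1.38 CPM, median 0.122), Rhbdl2 (0.688 CPM, median 0) and the erythroid sum (6906 CPM, median 679). Among the parietal OF libraries, replicate 5 was highest for Matn4 (5.59 CPM, median 1.57), replicate 4 for Dpt (10.9 CPM, median 4.32) and Socs2 (22.4 CPM, median 17.2), and replicate 2 for Slc13a5 (531 CPM, median 420) and Dkk1 (50.2 CPM, median 28.9). Replicate 3 was lowest for Bmp3 (83.1 CPM, median 140), and replicate 1 was highest for the skeletal muscle sum (47.2 CPM, median 12.5). Among the interparietal OF libraries, replicate 5 was highest for Dmp1 (95.7 CPM, median 27.2) and the erythroid sum (3908 CPM, median 284) and lowest for Msx2 (28.6 CPM, median 40.3). Replicate 2 was highest for Fgf18 (17.4 CPM, median 6.46), replicate 3 lowest for the osteoclast sum (226 CPM, median 297) and replicate 4 highest for the total count (9386647, median 8598662).

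Of the results called by the tests of a difference between groups, the naming rules kept the 16 below. Bmp5, also called between the fronts (2.89), lay under 10 CPM and was left out. The fronts differed for Chrdl1 (-1.54, interparietal minus parietal), a call lost in 14 of 31 alternatives. The difference between SM and OF changed from E16.5 to E18.5 by 1.31 for Socs2, 1.00 for Abca1, 0.76 for Syne1, -3.22 for Adamts18, -2.98 for Tppp3, -2.17 for Cdkn1a and -2.13 for Bmp3. It differed from the mean of the other sutures by 2.08 for Ctnna2, 1.88 for Bmper, 1.76 for Efemp1, 1.30 for Eya1, -3.82 for Entpd3, -2.40 for Ano1, -1.93 for Acta2 and -1.75 for Gprin3.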

How the results depend on the processing

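Of 1954 alternative values of the named genes 1845 kept their direction and side of the threshold, 109 lost the call and 0 reversed. All 744 against the parietal OF were kept, and the 6 lost against the interparietal OF were those of Cbln2. The others were lost between the fronts (14 of 31, Chrdl1), by stage (45 of 203) and by suture (44 of 232). With replicates 3 to 5 alone (litter labels that begin alike) 2463 genes were called against the parietal OF, 2366 against the interparietal OF, 1890 in both, 0 between the fronts, 6 by stage and 12 by suture. Without the 15 coronal E16.5 libraries 6059 were called against the interparietal OF, 5153 in both, 11 between the fronts, 164 by stage and 401 by suture. Between the fronts DESeq2 called 9, limma-voom 1 and the 15 libraries alone 9. By stage DESeq2 called 67, limma-voom 0 (550 at an unadjusted p under 0.05), total counts 41 and no filter 38, and by suture limma-voom called 12. In the paired fit with a replicate block 4929 genes were called against the parietal OF, 4018 against the interparietal OF, 3541 in both, 3 between the fronts, 49 by stage and 141 by suture, and 27 between the fronts with the 15 libraries alone and the block. Leaving out 1 replicate number or 1 library gave 3703 to 4783 calls against the parietal OF, 2925 to 3798 against the interparietal OF, 2575 to 3196 in both, 0 to 2 between the fronts, 11 to 34 by stage and 34 to 90 by suture. Where counts moved, the cause was not tested. Genes with few SM reads are limited by depth: the floor of 3 reads over the 5 SM libraries is 0.0779 CPM.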

Other observations

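These values were looked up after the data were seen. Of the 501 genes spanning over 300 kb 10.98% were lower against the parietal OF and 9.18% against the interparietal OF, and of the 8077 spanning up to 10 kb 11.23% and 9.06% were. The shares were larger in between, at 17.57% and 14.81% for 10 to 100 kb and 16.66% and 13.64% for 100 to 300 kb. The summed level of 1407 olfactory receptor genes, which these tissues are not known to use, was 15.4 to 40.1 CPM in the SM, 11.2 to 24.8 CPM in the parietal OF and 13.0 to 23.5 CPM in the interparietal OF. That of 565 vomeronasal receptor genes was 8.10 to 19.7 CPM in the SM, 4.62 to 6.87 CPM in the parietal OF and 5.79 to 9.45 CPM in the interparietal OF. The vomeronasal sums of 3 of the 5 SM libraries lay above all 10 OF libraries. Ribosomal protein genes summed to 9816 to 11285 CPM in the SM, 12346 to 17655 CPM in the parietal OF and 12464 to 15681 CPM in the interparietal OF.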
